A study of Mus musculus with 21 samples.

Results

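The genes described here are regulators of chromatin and transcription in which disruptive variants have been linked to autism and other neurodevelopmental disorders in humans. They were chosen by name: a gene was a member when its symbol was 1 of 36 given names and had a row in both tables of RNA levels, one for Neuro2a cells and one for mouse cortical nuclei. This gave 35 members of 31553 features listed for Neuro2a and 39008 listed for the nuclei. Dyrk1a, the remaining name, was not analysed here.

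Chromatin regulators set how tightly DNA is wrapped around histones. Remodellers slide or evict nucleosomes with the energy of ATP, methyltransferases and demethylases write and remove methyl marks on histone tails, and transcription factors and co-regulators bring these enzymes to promoters and enhancers. In developing cortex many of these genes are sensitive to dose, so that the loss of 1 copy can alter neuronal differentiation, and the sodium channel gene Scn2a stands beside them on lists of genes linked to autism.

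The study used CRISPR activation (CRISPRa), in which a catalytically dead Staphylococcus aureus Cas9 fused to the activator VP64 (sadCas9-VP64) is led to a promoter by a guide RNA, here one for Scn2a. Neuro2a is a mouse neuroblastoma line, and it received 750 ng of guide plasmid with 750 ng of sadCas9-VP64 plasmid in 6 samples (CRISPRa) or sadCas9-VP64 without a guide in 6 samples (VP64 only). By their library names, replicates 4 to 6 form library set 8 and replicates 1 to 3 form library set 7 in each group. What the set numbers stand for is not stated. Cortical nuclei sorted for NeuN, a marker of neurons, came from C57BL/6J mice: 3 Scn2a+/- mice given 500 nL of rAAV with sadCas9-VP64 and the Scn2a guide in the medial prefrontal cortex and used 4 weeks later (Het CRISPRa), 3 Scn2a+/- mice (Het) and 3 wild-type mice (WT). Nuclei were taken from 200 mg of cortex. The labels give neither the age of the mice, nor the promoter of the vector, nor whether Het and WT mice were injected. Nothing in the labels says that the Neuro2a replicates were separate cultures, so p-values measure the spread between these libraries.

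Levels are counts per 1000000 reads (CPM), from 15.5 to 21.0 M reads per Neuro2a library and 15.5 to 20.1 M reads per nuclei library (M, 1000000; estimated from the value of 1 read), and differences are on the log2(CPM + 0.5) scale, which understates the change of low genes. Scn2a averaged 4.6 ± 0.50 CPM in CRISPRa, against 3.09 ± 0.23 CPM in VP64-only Neuro2a cells (SD, n = 6 each), and 271 ± 18 CPM in Het CRISPRa, 230 ± 29 CPM in Het and 250 ± 19 CPM in WT nuclei (SD, n = 3 each). The deleted part of Scn2a is not stated, so its level in Het nuclei does not check the genotype. The neuronal marker Rbfox3, which encodes NeuN, lay between 260 and 358 CPM in every nuclei library, and Hand2, a factor of sympathetic neurons and neuroblastoma, between 324 and 380.1 CPM in every Neuro2a library. The sadCas9-VP64 transcript lay between 564 and 632 CPM in CRISPRa and between 318 and 370 CPM in VP64-only libraries of set 8, between 1683 and 2154 CPM in CRISPRa and between 2497 and 2646 CPM in VP64-only libraries of set 7, between 4.09 and 7.12 CPM in Het CRISPRa nuclei, and at 0 in Het and WT nuclei. Het replicate 1 stood apart from the other nuclei libraries on the first principal component and had the highest share of mitochondrially encoded reads, 1.88%, against 0.733 to 1.41% in the others.

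A few promoters are shown because their genes share a direction of change in Neuro2a or go against it: Kmt2c and Med13l fell there, and Trip12 rose in both library sets when each was tested alone. RefSeq promoter entries for GRCm38.p6 were found for 24 of the 35 members, and each window below is the 250 bases before the annotated start, on the gene's own strand. Capitals mark GGGCGG, the GC box bound by Sp1-family factors, and CCAAT, on either strand, with overlapping matches joined. The Kmt2c window (chr5:25498784-25499033, minus strand), the Med13l window (chr5:118560469-118560718, plus strand) and the Trip12 window (chr1:84839305-84839554, minus strand) read as follows.
Kmt2c: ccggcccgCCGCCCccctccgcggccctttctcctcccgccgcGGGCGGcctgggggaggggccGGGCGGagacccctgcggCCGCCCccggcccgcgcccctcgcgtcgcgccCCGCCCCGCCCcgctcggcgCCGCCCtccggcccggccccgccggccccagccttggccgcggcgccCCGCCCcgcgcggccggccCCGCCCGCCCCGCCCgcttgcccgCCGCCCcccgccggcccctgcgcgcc
Med13l: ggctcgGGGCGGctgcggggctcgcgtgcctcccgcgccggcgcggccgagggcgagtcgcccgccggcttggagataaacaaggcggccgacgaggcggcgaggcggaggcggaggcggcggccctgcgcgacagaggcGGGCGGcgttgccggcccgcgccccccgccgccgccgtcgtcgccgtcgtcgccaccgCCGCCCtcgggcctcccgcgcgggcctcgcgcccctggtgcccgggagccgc
Trip12: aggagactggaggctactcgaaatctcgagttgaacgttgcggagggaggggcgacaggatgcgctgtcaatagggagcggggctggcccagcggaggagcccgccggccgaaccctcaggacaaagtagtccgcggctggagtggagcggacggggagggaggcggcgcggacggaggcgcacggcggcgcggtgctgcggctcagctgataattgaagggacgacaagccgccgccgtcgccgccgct
The Kmt2c window held 12 matches to GGGCGG and 48 CG dinucleotides, and the Med13l window held 3 matches and 51 CG dinucleotides. Trip12 had 0 matches to either motif and 32 CG dinucleotides in its window. Over the members' 30 windows (24 genes), 80.0% held GGGCGG, against 32.7% of the 32851 windows (27025 genes) in the whole table, and the median count of CG dinucleotides was 23.5, against 6. The whole table was not limited to genes tested here, so these shares do not set the members apart from other expressed genes.

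CCAAT was present in 30.0% of the members' windows and in 33.8% of all windows, TATAAA in 6.67% and in 12.4%. Among members that fell in Neuro2a, 70.0% of 10 windows from 6 genes held GGGCGG. The window listed for Setd5, another member that fell, had 0 CG dinucleotides and a GC content of 36.8%. A match to letters is a description of the window and not of binding.

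In Neuro2a, 32 of the 35 members passed the filter on low values (at least 0.5 CPM in at least 6 libraries). Tbr1, a T-box factor of deep-layer cortical neurons, Bcl11a, a zinc finger factor of cortical neurons, and Asxl3, a partner of the Bap1 histone deubiquitinase, did not pass. Their highest values in any Neuro2a library were 0.234, 0.0597 and 0.179 CPM in that order, and 3 reads correspond to at most 0.193 CPM. Over the 9 nuclei libraries these genes averaged 76.4 CPM (Tbr1), 135 CPM (Bcl11a) and 24.3 CPM (Asxl3), and all 35 members passed the filter.

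Levels of different genes were compared per kb of exon, with lengths from an annotation of GRCm38, an earlier build than the one the submitters' notes name. In nuclei, Chd3, a remodeller of the NuRD complex, was the highest member at 58.2 CPM per kb, and Kmt2a, an H3K4 methyltransferase, followed at 29.9 CPM per kb. These values lay at the 97.2 and the 92.0 percentile of the genes tested. In Neuro2a the order differed: Ctnnb1, which encodes beta-catenin, had 67.1 CPM per kb, Ankrd11, an ankyrin-repeat co-regulator, 46.2 CPM per kb, and Kdm6b, an H3K27 demethylase, 40.4 CPM per kb. Chd3 had 6.41 and Kmt2a 5.56 CPM per kb in Neuro2a, near the middle of the genes tested there (percentiles 50.3 and 47.0).

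Nsd1, an H3K36 methyltransferase, stood apart. In Neuro2a it had between 2.11 and 3.54 CPM in CRISPRa and between 1.77 and 4.18 CPM in VP64-only libraries, at the 2.04 percentile of CPM per kb, and in nuclei it had between 223 and 258 CPM, at the 79.7 percentile. Chd7, a remodeller of neural crest and progenitor cells, was the member lowest per kb in nuclei, with 1.32 CPM per kb, and lay at the 47.6 percentile in Neuro2a. The tables were normalized separately and differ in RNA source (whole cells and nuclei), so ranks within each table are given and no test was made between them.

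**Figure D1:**
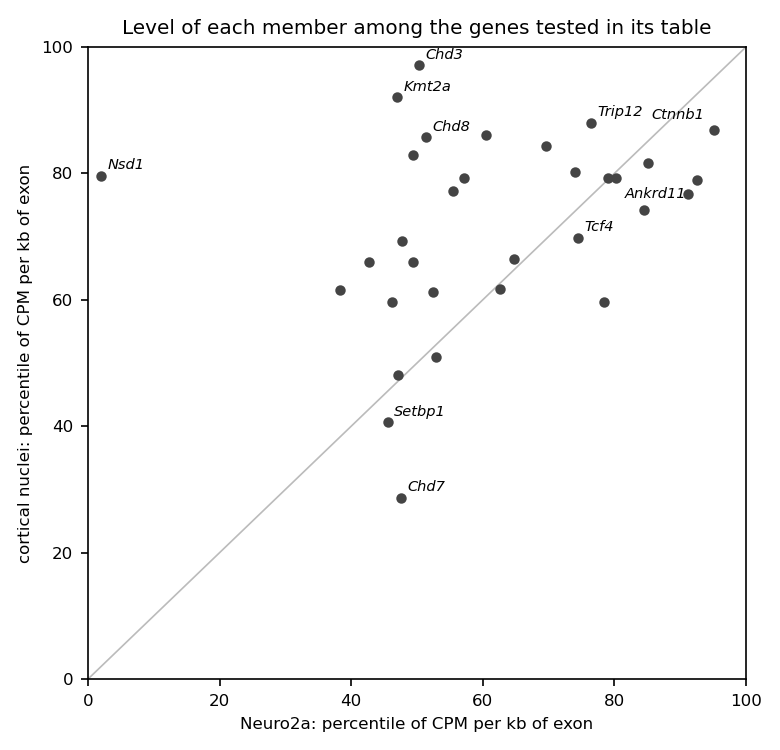
Each point is 1 of the 32 members tested in both tables, with the percentile of its mean CPM per kb of exon among the genes tested in Neuro2a (x axis) and in cortical nuclei (y axis). The line marks equal percentiles. Nsd1 lies at the far left, at percentile 2.04 in Neuro2a and 79.7 in nuclei, and Chd3 and Kmt2a lie well above the line.

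The first comparison asked which members differ when the guide plasmid is added to sadCas9-VP64 in Neuro2a. No samples received such a plasmid without the Scn2a guide, so the guide and the added plasmid cannot be told apart. Tested with limma without a term for library set, 9 of the 32 members fell and 0 rose at an adjusted p (Benjamini-Hochberg, all genes) under 0.05. Of all 14398 genes tested, 5.02% fell and 10.0% rose. The members that fell were Foxp1, Tcf4, Setbp1, Chd2, Setd5, Kmt2c, Med13l, Kmt5b and Phf21a, with changes between -12.5 and -28%. Of these, 7 had every CRISPRa library below every VP64-only library, against 3.01% of all genes, and 0 members were wholly higher, against 5.74%. At an unadjusted p under 0.05, 13 members and 30.3% of all genes passed. The median log2 difference was -0.09 over the 32 members and 0.06 over all genes tested.

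In the authors' deposited table for this comparison, 10 of 33 members listed were lower and 0 were higher at an adjusted p under 0.05. Tbr1, 1 of the 33, had no adjusted p there. Of the 15114 genes with an adjusted p, among 20749 listed, 9.06% were lower and 9.11% higher. Those 10 were the 9 named above and Ehmt1, an H3K9 methyltransferase, which had a log2 fold change of -0.14 (SE 0.052, adjusted p = 0.0355) in the authors' deposited table and a difference of -0.08 (SE 0.053, adjusted p = 0.319) in limma. With replicate numbers as a block, limma called 11 members lower and 3 higher, against 11.4 and 19.9% of all genes. The block added Ankrd11 (log2 difference -0.19, adjusted p = 0.0148) and Arid1b, a subunit of the BAF remodelling complex (-0.22, adjusted p = 0.0188), among the lower, and Trip12, Naa15 and Chd3 among the higher. The same counts, 11 lower and 3 higher, came from a fit with the library set as a covariate, against 14.5 and 25.0% of all genes. When libraries were scaled by median of ratios, the calls over all genes were 50.2% higher in place of 66.6%, and the members stayed at 9 lower and 0 higher.

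Of the 4 transcription factors tested, 2 fell. Foxp1, a forkhead repressor, had 79.8, 89.0 and 91.6 CPM as the lowest, median and highest of the CRISPRa libraries, against 104, 108 and 111 CPM in the VP64-only libraries. The highest CRISPRa library lay below the lowest VP64-only library, and the level fell by 19.4% (log2 difference -0.31, SE 0.045, adjusted p = 0.00086 in limma). Tcf4, a class I basic helix-loop-helix factor, had 387, 398 and 411 CPM in CRISPRa libraries, against 449, 467 and 487 CPM in VP64-only libraries. The groups did not overlap, and the level fell by 14.9% (log2 difference -0.23, SE 0.041, adjusted p = 0.00246 in limma). Pogz, a zinc finger factor that binds HP1, differed by -0.12 (adjusted p = 0.272 in limma) and Tcf20, a nuclear factor related to Rai1, by 0.0008 (95% interval -0.11 to 0.11, adjusted p = 0.994 in limma).

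Of the 8 histone methyltransferases, 3 fell. Setd5, a SET-domain protein, had 233, 258 and 284 CPM as the lowest, median and highest in CRISPRa libraries, against 301, 307 and 324 CPM in VP64-only libraries. It fell by 16.7% with no overlap (log2 difference -0.26, SE 0.055, adjusted p = 0.00678 in limma). Kmt2c, an H3K4 methyltransferase of enhancers, had 87.7, 110.3 and 123 CPM in CRISPRa libraries, against 131, 139 and 154 CPM in VP64-only libraries. It fell by 23.8%, also with no overlap (log2 difference -0.39, SE 0.082, adjusted p = 0.00681 in limma). Kmt5b, an H4K20 methyltransferase, had 49.3, 53.7 and 57.9 CPM in CRISPRa libraries, against 56.1, 61.1 and 66.7 CPM in VP64-only libraries. Its groups overlapped by a single VP64-only library (replicate 2), and it fell by 12.5% (log2 difference -0.19, SE 0.058, adjusted p = 0.0392 in limma).

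The other methyltransferases did not pass the test. Kmt2a differed by 0.01 (95% interval -0.17 to 0.19), Setd2, which trimethylates H3K36, by 0.02 (-0.12 to 0.15), Ash1l, an H3K36 methyltransferase, by -0.05 (-0.15 to 0.04) and Nsd1 by -0.08 (-0.44 to 0.29).

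Of the 6 remodellers, Chd2, a chromodomain helicase, was the only one that fell. It had 112, 130.1 and 144 CPM as the lowest, median and highest in CRISPRa libraries, against 155, 175 and 220 CPM in VP64-only libraries. The groups did not overlap, and the level fell by 28%, the most among the 32 members (log2 difference -0.47, SE 0.099, adjusted p = 0.00664 in limma). Chd8, a helicase gene often found mutated in autism, differed by 0.04 (95% interval -0.12 to 0.19), Chd7 by -0.05 (-0.17 to 0.06), Chd3 by 0.17 (-0.10 to 0.44) and Adnp, a homeobox zinc finger protein that works with Chd4 and HP1, by -0.06 (-0.25 to 0.13). Arid1b differed by -0.22 (adjusted p = 0.136 in limma). None of these passed the test, while Chd3 (adjusted p = 0.0195) and Arid1b (adjusted p = 0.0188) passed in limma with the replicate block.

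Among 7 co-regulators tested, Setbp1 and Med13l fell. Setbp1, which binds the oncoprotein SET, had 39.9, 45.4 and 46.3 CPM as the lowest, median and highest in CRISPRa libraries, against 52.1, 58.7 and 66.5 CPM in VP64-only libraries. It fell by 24.0% with no overlap (log2 difference -0.40, SE 0.072, adjusted p = 0.00302 in limma). Med13l, of the kinase module of Mediator, had 82.0, 87.9 and 96.2 CPM in CRISPRa libraries, against 98.4, 102 and 108 CPM in VP64-only libraries. It fell by 13.8% with no overlap (log2 difference -0.21, SE 0.053, adjusted p = 0.0161 in limma). Among the histone demethylases and their partners, Phf21a, a reader of unmodified H3K4 in the Lsd1-CoREST complex, had 52.8, 64.8 and 76.0 CPM in CRISPRa libraries, against 72.7, 77.8 and 84.5 CPM in VP64-only libraries. Its groups overlapped, and it fell by 18.9% (log2 difference -0.30, SE 0.093, adjusted p = 0.0431 in limma). The 2 demethylases did not pass, with differences of -0.14 for Kdm6b and -0.11 for Kdm5b, nor did the co-regulators Ankrd11 (-0.19, adjusted p = 0.158 in limma), Wac (-0.09) and Tbl1xr1, a subunit of the NCoR complex (-0.03).

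The 4 kinase, ubiquitin ligase and acetyltransferase genes all had differences above 0 in limma, and none passed. Naa15, the auxiliary subunit of the NatA acetyltransferase, averaged 88.6 ± 10.2 CPM in CRISPRa, against 77.1 ± 2.7 CPM in VP64-only libraries (SD, n = 6 each; adjusted p = 0.0769 in limma). Trip12, a HECT-type ubiquitin ligase, averaged 297 ± 18 CPM in CRISPRa, against 267 ± 22 CPM in VP64-only libraries (SD, n = 6 each; adjusted p = 0.111 in limma). Both passed with the replicate block, Trip12 at an adjusted p of 0.0126 and Naa15 at 0.0284 in limma. Tlk2, a kinase of histone chaperones, differed by 0.09 and Cul3, the scaffold of a ubiquitin ligase family, by 0.04. In the authors' deposited table the log2 fold changes were 0.14 for Naa15, 0.09 for Trip12, 0.03 for Tlk2 and -0.02 for Cul3. Of the 32 members compared, 26 had the same sign there as in limma.

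**Figure D2:**
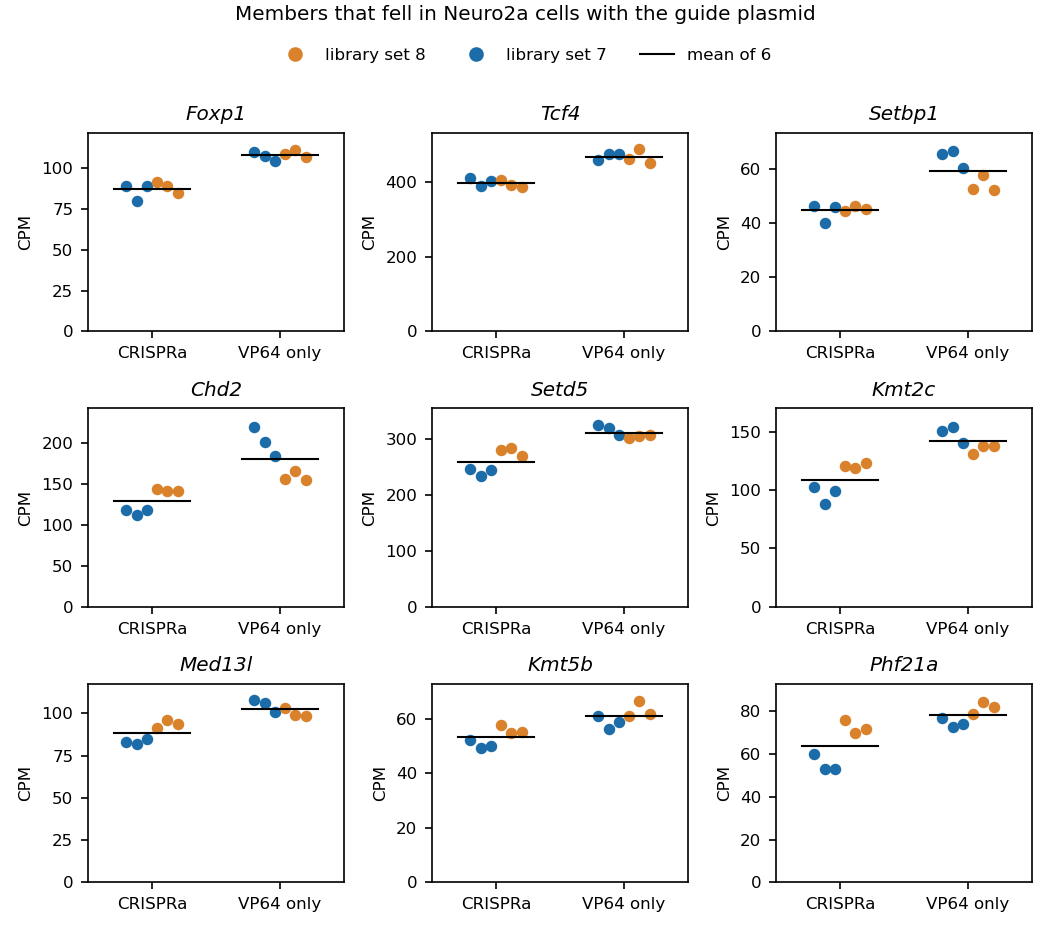
The 9 members that fell in Neuro2a, 1 panel each, with CPM on the y axis from 0, CRISPRa left and VP64 only right. Points are libraries (orange, set 8; blue, set 7) and lines are means of 6. For Foxp1 the gap between the groups is alike in both sets, and for Chd2 it is wide in set 7 and narrow in set 8.

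The calls were not equally firm. Foxp1, Tcf4, Setbp1, Chd2, Setd5 and Kmt2c passed under all 22 alternatives to the main settings, and Med13l under 21, the exception being set 8 alone (log2 difference -0.10, adjusted p = 0.136 in limma). Kmt5b passed under 13 and Phf21a under 11. Kmt5b did not pass when any of CRISPRa replicates 1 to 3 or any VP64-only replicate other than replicate 2 was left out, with adjusted p values up to 0.0891 in limma. Phf21a did not pass when any of CRISPRa replicates 1 to 3 or any VP64-only replicate was left out, with adjusted p values up to 0.0940. Libraries of the 2 groups also differed in the share of mitochondrially encoded reads (1.09 to 1.47% in CRISPRa, 0.816 to 1.03% in VP64-only libraries) and in the summed level of 19 interferon-response genes (4517 to 6863 CPM in CRISPRa, 1832 to 3777 CPM in VP64-only libraries). All 19 interferon genes and 10 of 13 mitochondrially encoded mRNAs rose. Of the cell type markers, 1 of 7 tested neuron genes fell, 1 rose and 1 fell of 7 glia and vessel genes, and 1 of 9 sympathetic and neuroblastoma genes rose. Their part in the members' differences was not tested.

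The members are long genes. The 32 tested in Neuro2a had a median of 13770 exonic bases, against 4161 for all tested genes with a known length, and 27 of the 32 were in the longest of 5 equal length classes (7252 to 123179 bases). In that class, 8.92% of all genes fell and 8.26% rose, against 3.27 and 8.95% in the shortest class, and the members' 9 calls were all in it. The median log2 difference in the longest class was -0.11 over the members and 0.0058 over all genes. The part of length in the members' differences was not tested.

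In set 8 alone, 8 of the 32 members fell and 4 rose, against 10.3 and 14.1% of all genes, and the median log2 difference was -0.0048 over the members and 0.025 over all genes. In set 7 alone, 18 fell and 3 rose, against 16.4 and 29.4% of all genes, and the medians were -0.18 over the members and 0.086 over all genes. Members wholly lower in CRISPRa than in VP64-only libraries numbered 11 in set 8, against 16.5% of all genes, and 21 in set 7, against 19.6%. Those wholly higher numbered 7 in set 8, against 21.9% of all genes, and 5 in set 7, against 34.6%. The same 8 members fell in both sets: Chd2, Foxp1, Kmt2c, Kmt5b, Phf21a, Setbp1, Setd5 and Tcf4. Trip12 rose in both, by 0.19 (SE 0.041, adjusted p = 0.00264) in set 8 and 0.12 (SE 0.042, adjusted p = 0.0292) in set 7, in limma on each set.

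A further 9 members fell in set 7 and did not pass in set 8: Adnp, Ankrd11, Arid1b, Chd7, Ehmt1, Kdm6b, Med13l, Pogz and Wac, an adaptor for histone H2B ubiquitination. Setd2 and Tlk2 rose in set 8 and did not pass in set 7, and Chd3 and Naa15 rose in set 7 and did not pass in set 8. Whether CRISPRa minus VP64 only differs between the sets needs the test of that difference. The set 8 value minus the set 7 value was above 0 for 14 members and below 0 for 0 (adjusted p under 0.05 in limma). The shares over all genes were 9.42 and 12.3%, and with the replicate block the members numbered 13 and 0 (8.84 and 11.4% of all genes). Values above 0 include falls that were smaller in set 8. With median-of-ratios scaling the calls over all genes were 57.0% higher in place of 43.3%, and the members' counts were 16 and 0. In the longest length class, 18.6% of all genes had a higher difference in set 8 and 8.88% a lower one, and 11 of the 27 members there were higher.

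Auts2, a co-regulator that joins a Polycomb complex with activating properties, had the smallest p for the difference and went in opposite directions. In set 8 it had 135, 135 and 132 CPM in CRISPRa libraries, against 117, 126 and 111 CPM in VP64-only libraries. In set 7 it had 171, 166 and 157 CPM in CRISPRa libraries, against 225, 212 and 229 CPM in VP64-only libraries. CRISPRa libraries were all higher in set 8 and all lower in set 7, with log2 differences of 0.18 (SE 0.048, adjusted p = 0.0120) in set 8 and -0.43 (SE 0.048, adjusted p = 2.4e-06) in set 7 by limma on each set. The difference of these differences was 0.61 (SE 0.069, adjusted p = 3.28e-06 in limma), while over both sets together Auts2 did not pass (-0.12, adjusted p = 0.704 in limma).

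Chd2 and Kmt2c fell in both sets and less in set 8. Chd2 had 144, 141 and 142 CPM in CRISPRa, against 156, 166 and 155 CPM in VP64-only libraries of set 8, and 119, 112 and 118 CPM in CRISPRa, against 220, 202 and 185 CPM in VP64-only libraries of set 7. The groups were apart in each set, by -0.16 in set 8 and -0.79 in set 7, and these differed by 0.64 (SE 0.074, adjusted p = 4.61e-06 in limma). Kmt2c had 121, 118 and 123 CPM in CRISPRa, against 131, 137 and 137 CPM in VP64-only libraries of set 8, and 102, 87.7 and 99.3 CPM in CRISPRa, against 150.3, 154 and 139.9 CPM in VP64-only libraries of set 7. Its log2 differences were -0.17 in set 8 and -0.62 in set 7, apart by 0.45 (SE 0.075, adjusted p = 0.000246 in limma).

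Wac, Kdm6b and Pogz fell in set 7, did not pass in set 8, and differed between the sets. Wac had 164, 168 and 159.7 CPM in CRISPRa, against 159, 149 and 146 CPM in VP64-only libraries of set 8, and 138, 141 and 146 CPM in CRISPRa, against 174, 173 and 174 CPM in VP64-only libraries of set 7. CRISPRa libraries of set 7 were all lower, and those of set 8 were all higher without passing (difference of the differences 0.41, SE 0.059, adjusted p = 5.94e-05 in limma). Kdm6b had 314, 304 and 322 CPM in CRISPRa, against 286, 313 and 307 CPM in VP64-only libraries of set 8, and 240.2, 224 and 211 CPM in CRISPRa, against 282, 285 and 285 CPM in VP64-only libraries of set 7. The 3 set 7 CRISPRa libraries were the lowest of the 12 (difference 0.39, SE 0.065, adjusted p = 0.000274 in limma). Pogz had 87.1, 93.1 and 91.8 CPM in CRISPRa, against 88.4, 83.7 and 91.7 CPM in VP64-only libraries of set 8, and 72.7, 73.3 and 75.2 CPM in CRISPRa, against 95.4, 88.4 and 87.4 CPM in VP64-only libraries of set 7. Its groups overlapped in set 8 and were apart in set 7 (difference 0.34, SE 0.071, adjusted p = 0.00202 in limma).

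**Figure D3:**
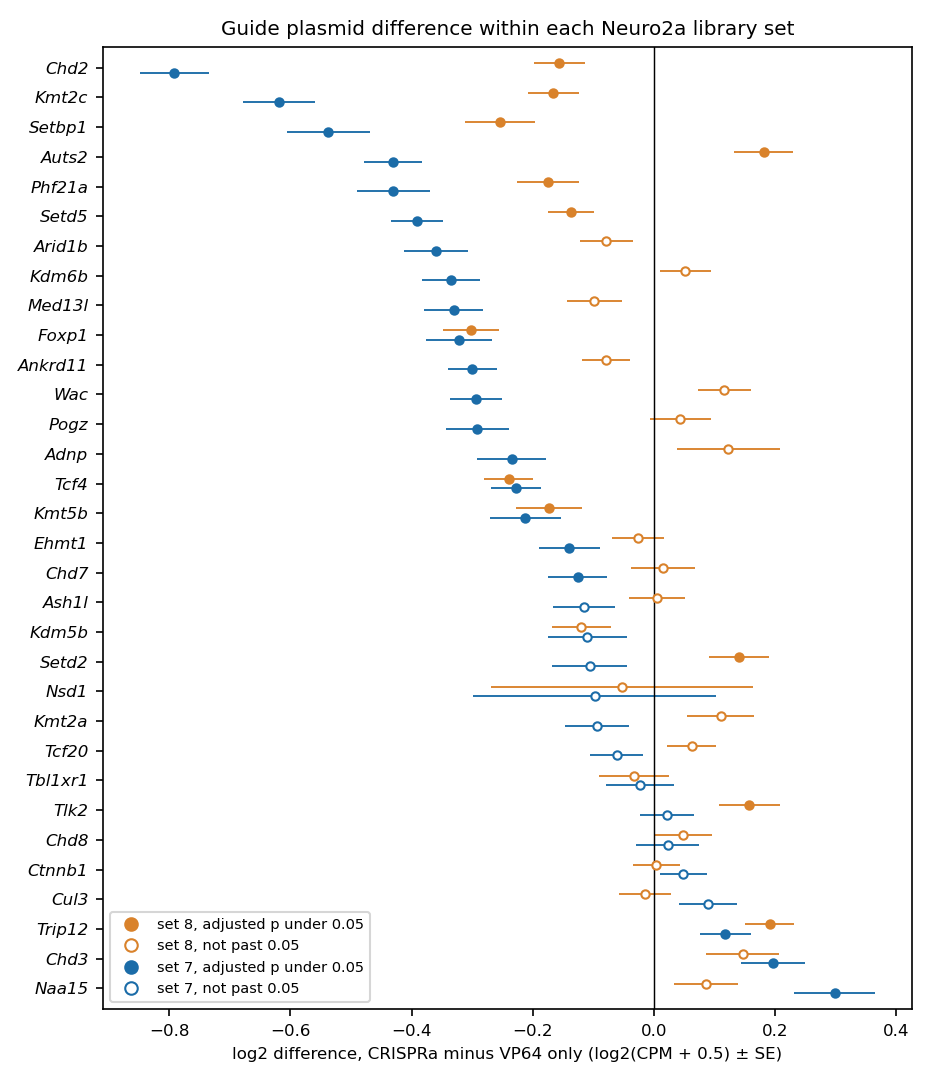
The log2 difference CRISPRa minus VP64 only (x axis, ± SE) of each of the 32 members tested, for library set 8 (orange) and set 7 (blue), with filled points past an adjusted p of 0.05 in limma. Members are ordered by their set 7 value. For Foxp1 and Tcf4 the error bars of the 2 sets overlap, and for Chd2, Kmt2c and Auts2 they lie far apart.

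For the 2 transcription factors that fell, the difference between sets did not pass. Foxp1 differed by -0.30 (SE 0.047) in set 8 and -0.32 (SE 0.054) in set 7, and Tcf4 by -0.24 (SE 0.040) in set 8 and -0.23 (SE 0.041) in set 7. The 95% interval of the difference between sets was -0.13 to 0.17 for Foxp1 and -0.13 to 0.10 for Tcf4, and Kmt5b, with -0.12 to 0.20, was the other member that fell overall and did not pass this test.

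The library sets differed within each treatment as well. Among VP64-only libraries, set 8 against set 7, 3 members were higher and 13 lower, against 19.9 and 25.9% of all genes in limma. Log2 differences were -0.91 (SE 0.049) for Auts2, -0.40 (SE 0.053) for Chd3 and -0.34 (SE 0.052) for Chd2, and Kdm5b, an H3K4 demethylase, was higher by 0.43 (SE 0.059), with Ankrd11 and Arid1b. Among CRISPRa libraries, 16 members were higher and 7 lower in set 8, against 21.3 and 33.4% of all genes. The 3 demethylase genes and partners were all higher there, Kdm6b by 0.48 (SE 0.046), Kdm5b by 0.42 (SE 0.059) and Phf21a by 0.39 (SE 0.056), while Chd3 (-0.45, SE 0.053) and Cul3 (-0.31, SE 0.044) were lower. With quantile normalization the VP64-only counts became 8 higher and 10 lower, beside 3110 and 3210 of all 14398 genes. With median-of-ratios scaling they became 7 higher and 13 lower, beside 3256 and 3322 of all genes. Median-of-ratios scaling also moved the higher share of all calls in CRISPRa libraries to 50.4% in place of 39.0%. There 16 members were higher and 5 lower, beside 3830 and 3775 of all genes.

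Transgene levels moved with these sets. The transcript listed as McherryPuro lay between 1574 and 1927 CPM in CRISPRa libraries of set 8 and between 4626 and 5782 CPM in those of set 7, and was at 0 in all VP64-only libraries. The summed interferon-response level in set 8 was 4517 to 4925 CPM in CRISPRa and 1832 to 1919 CPM in VP64-only libraries, and in set 7 it was 6442 to 6863 CPM in CRISPRa and 3366 to 3777 CPM in VP64-only libraries. Their part in the difference between the sets was not tested.

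The 15 lists of partners and relatives held 271 genes outside the members, of which 254 were tested in Neuro2a, and 14 rose and 18 fell with a median log2 difference of -0.0058. Among 28 other autism-linked regulators, 7 fell and 0 rose (median -0.08). Over all genes tested, 10.0% rose and 5.02% fell, with a median of 0.06, and the counts of the single lists stand beside the same shares. These lists were chosen with earlier results of these data known. Zbtb20, a zinc finger repressor, averaged 69.7 ± 4.9 CPM in CRISPRa, against 92.8 ± 11.6 CPM in VP64-only libraries (SD, n = 6 each), a log2 difference of -0.40 (adjusted p = 0.00595 in limma). Zmynd11, a reader of trimethylated H3K36, averaged 157 ± 8.6 CPM in CRISPRa, against 197 ± 16 CPM in VP64-only libraries (-0.33, adjusted p = 0.00337 in limma). Rfx3, a regulator of ciliary genes, averaged 31.6 ± 2.5 CPM in CRISPRa, against 39.5 ± 1.9 CPM in VP64-only libraries (-0.32, adjusted p = 0.00543 in limma).

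Of 18 Mll and COMPASS subunits, which act with Kmt2a and Kmt2c, 2 rose (Kmt2b by 0.22 and Setd1b by 0.19) and 1 fell (Ncoa6, -0.22). Of 22 other demethylase and CoREST genes, 2 rose and 2 fell, among them Kdm1b at 0.37, Hmg20b at 0.35 and Phf2 at -0.33. Of 25 Polycomb genes, 1 rose (Cbx6, by 0.16) and 2 fell (Pcgf1, -0.37, and Suz12, -0.24). In the beta-catenin pathway, whose transducer is the member Ctnnb1, the co-receptor Lrp6 fell by 0.33 and the kinase Gsk3b by 0.44 on the log2 scale, Btrc rose by 0.26, and Ctnnb1 itself differed by 0.03 (95% interval -0.11 to 0.16). Of 26 BAF subunits, 0 rose and 2 fell. Of 30 Mediator subunits tested, 1 rose and 1 fell, as did 1 and 1 of 14 NuRD and HP1 genes and 1 and 1 of 14 other methyltransferases. The NCoR and SMRT complex had 1 higher of 8, Cul3 ligase partners 2 of 18, NatA and kinase partners 1 of 14 and cortical transcription factor partners 1 of 5, each with 0 lower. Neither the 6 other CHD remodellers nor the 6 class I bHLH partners and Id genes had a call.

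In cortical nuclei the question was whether the members differ between Scn2a+/- and wild-type mice, and between Scn2a+/- mice with and without the CRISPRa injection. In limma, 0 of the 35 members passed the adjusted threshold in any of the 3 comparisons. In simulated data for Het CRISPRa against Het, the fit recovered 48% of 2-fold changes and 0% of the smaller changes tested. The absence of calls therefore does not show that changes of the size seen in Neuro2a were absent. Over all 18967 genes tested, the share called was 0.0422% for Het CRISPRa against Het, 0.00527% for Het CRISPRa against WT and 0% for Het against WT. At an unadjusted p under 0.05 the members numbered 1 for Het CRISPRa against Het (5.25% of all genes), 1 for Het CRISPRa against WT (1.77%) and 0 for Het against WT (5.01%). These unadjusted counts depended on single libraries. Without Het replicate 3 they were 7 for Het CRISPRa against Het (16.7% of all genes) and 4 for Het against WT (2647 of the 18967 genes). For Het CRISPRa against Het, leaving out Het CRISPRa replicate 3, Het replicate 2 or WT replicate 3 gave 2 members each. The shares of all genes were 7.88, 4.25 and 5.97% in that order. For Het against WT, leaving out WT replicate 1 gave 1 member (5.5% of all genes). For Het CRISPRa against WT the count was 0 without Het CRISPRa replicate 3 (1.34%), WT replicate 1 (1.23%) or WT replicate 2 (1.02%). It was 2 without WT replicate 3 (3.72%). The authors' deposited tables called 1 member, Adnp, in Het CRISPRa against Het (0.0501% of all genes higher and 0.267% lower). Shares for these tables are of the genes with an adjusted p, here 23964. They called 0 members in Het CRISPRa against WT (0.0121% higher, 0.0282% lower) and 0 in WT against Het, coded as WT over Het (0.0173% higher, 0.0475% lower). The comparisons share libraries, and fewer cells of a type and less RNA per cell cannot be told apart in bulk nuclei.

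Adnp had 83.8, 90.7 and 112 CPM in Het CRISPRa nuclei, 39.9, 59.5 and 67.1 CPM in Het nuclei and 58.3, 71.2 and 79.7 CPM in WT nuclei. Every Het CRISPRa library was above every Het and every WT library, while Het and WT overlapped. Wholly higher levels were seen for 5.37% of all genes against Het, where 3 members (Adnp, Naa15 and Tbr1) were among them, and for 2.68% against WT, where 2 were (Adnp and Tbr1). Wholly lower were Phf21a against Het (4.61% of all genes) and Tcf20 against WT (4.46%), and for Het against WT the members had 0 wholly higher (3.37%) and 0 wholly lower (7.3%). The log2 difference of Adnp was 0.80 against Het (SE 0.185, 95% interval 0.40 to 1.20, unadjusted p = 0.000927, adjusted p = 0.323 in limma) and 0.45 against WT (SE 0.185, unadjusted p = 0.0309, adjusted p = 1.00 in limma). In the authors' deposited table it was 0.76 against Het (SE 0.193, adjusted p = 0.0281). Without Het replicate 1, the library that stood apart, the difference from Het was 0.58 (adjusted p = 0.829 in limma), and across 17 alternatives it lay between 0.58 and 0.95. Het minus WT for Adnp was -0.35 (95% interval -0.75 to 0.05, adjusted p = 0.875 in limma).

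The share of mitochondrially encoded reads was 0.733 to 0.830% in Het CRISPRa, 0.892 to 1.88% in Het and 0.773 to 1.23% in WT nuclei, and Adnp was lowest in the library where that share was highest. Its part in the Adnp difference was not tested. Summed markers of glia and vessels, 17 genes, were 118 to 126 CPM in Het CRISPRa, 121 to 139 CPM in Het and 117 to 149 CPM in WT nuclei, and none of the 17 was at or under 3 reads in every library of a group.

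Members next in order of p for Het CRISPRa against Het were Kmt5b, Tbl1xr1 and Chd2. Kmt5b had 106, 119 and 99.2 CPM in Het CRISPRa, against 65.9, 93.3 and 102 CPM in Het nuclei, and the groups overlapped (log2 difference 0.33, 95% interval -0.0009 to 0.66, adjusted p = 0.810 in limma). Tbl1xr1, a subunit of NCoR corepressor complexes, had 37.2, 36.3 and 33.2 CPM in Het CRISPRa, 22.7, 28.0 and 37.2 CPM in Het, and 29.4, 35.5 and 40.6 CPM in WT nuclei. Its differences were 0.30 against Het and 0.03 against WT, and -0.28 for Het against WT. Chd2 had 130.3, 131 and 115 CPM in Het CRISPRa, 90.8, 109 and 126 CPM in Het, and 103, 109 and 127 CPM in WT nuclei. Het replicate 1 was the lowest of the 9 libraries for Adnp, Kmt5b, Tbl1xr1 and Chd2, and also for Setd5 (241 CPM) and Setbp1.

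Against WT, the next members after Adnp were Ctnnb1, Setd5 and Chd2. Ctnnb1 had 109, 113 and 90.3 CPM in Het CRISPRa, 98.1, 108 and 105 CPM in Het, and 105, 122 and 126 CPM in WT nuclei, with log2 differences of -0.17 (95% interval -0.42 to 0.07) for Het CRISPRa against WT and -0.18 (-0.42 to 0.06) for Het against WT. Setd5 had 260.5, 309 and 260.4 CPM in Het CRISPRa, against 245, 243 and 267 CPM in WT nuclei (0.13, -0.07 to 0.34). For Het against WT, Setbp1 had 20.6, 26.9 and 22.3 CPM in Het, against 25.3, 29.1 and 29.0 CPM in WT nuclei (-0.26, -0.59 to 0.08). These groups overlapped, and none of these differences passed.

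**Figure D4:**
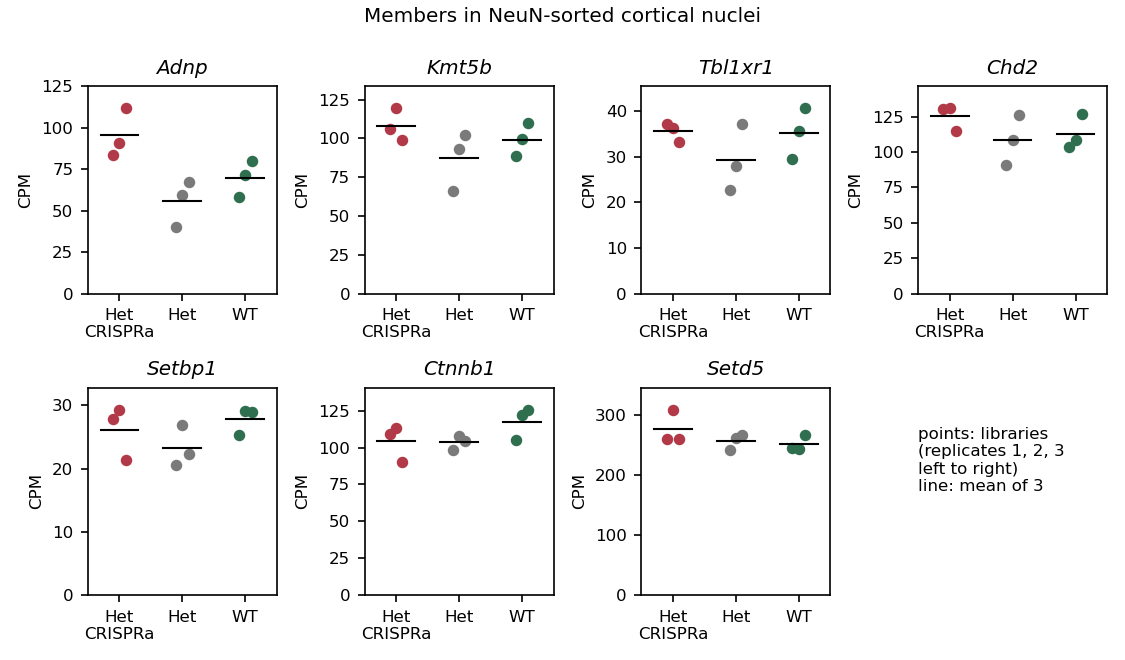
CPM of the 7 members named for the nuclei comparisons (y axes from 0), with Het CRISPRa left, Het in the middle and WT right. Points are libraries and lines are means of 3. Adnp is the panel in which the Het CRISPRa points lie above all others, and Het replicate 1 is the lowest point in 6 of the 7 panels, Ctnnb1 being the exception.

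The members that fell in Neuro2a did not pass the threshold in nuclei, which does not show that they were unchanged there, given the low recovery of small changes. For Het CRISPRa against Het, Foxp1 had 58.1, 55.3 and 57.4 CPM in Het CRISPRa and 53.9, 58.6 and 63.5 CPM in Het nuclei, and Tcf4 had 265, 275 and 201 CPM in Het CRISPRa and 259.9, 249.9 and 237 CPM in Het nuclei. Both pairs of groups overlapped. Over the 35 members the median log2 difference was 0.07 for Het CRISPRa against Het, 0.03 for Het CRISPRa against WT and -0.06 for Het against WT, beside 0.04, -0.02 and -0.05 over all genes tested. Leaving out single libraries moved the members' medians, given here with the median over all genes in brackets. For Het CRISPRa against Het they ran from 0.029 without Het CRISPRa replicate 2 (0.023) to 0.11 without Het replicate 3 (0.046). For Het CRISPRa against WT they ran from 0.00056 without WT replicate 1 (-0.023) to 0.055 without WT replicate 3 (-0.019). For Het against WT they ran from -0.08 without Het replicate 3 (-0.064) to -0.012 without WT replicate 3 (-0.049). With median-of-ratios scaling the median for Het against WT was -0.0045, beside -0.0052 over all genes. The 264 tested partner genes had 0 calls in each of the 3 comparisons. For Chd2, the member that fell most in Neuro2a, the 95% interval in nuclei ran from -0.06 to 0.49 for Het CRISPRa against Het, and no test was made between the tables.

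**Figure D5:**
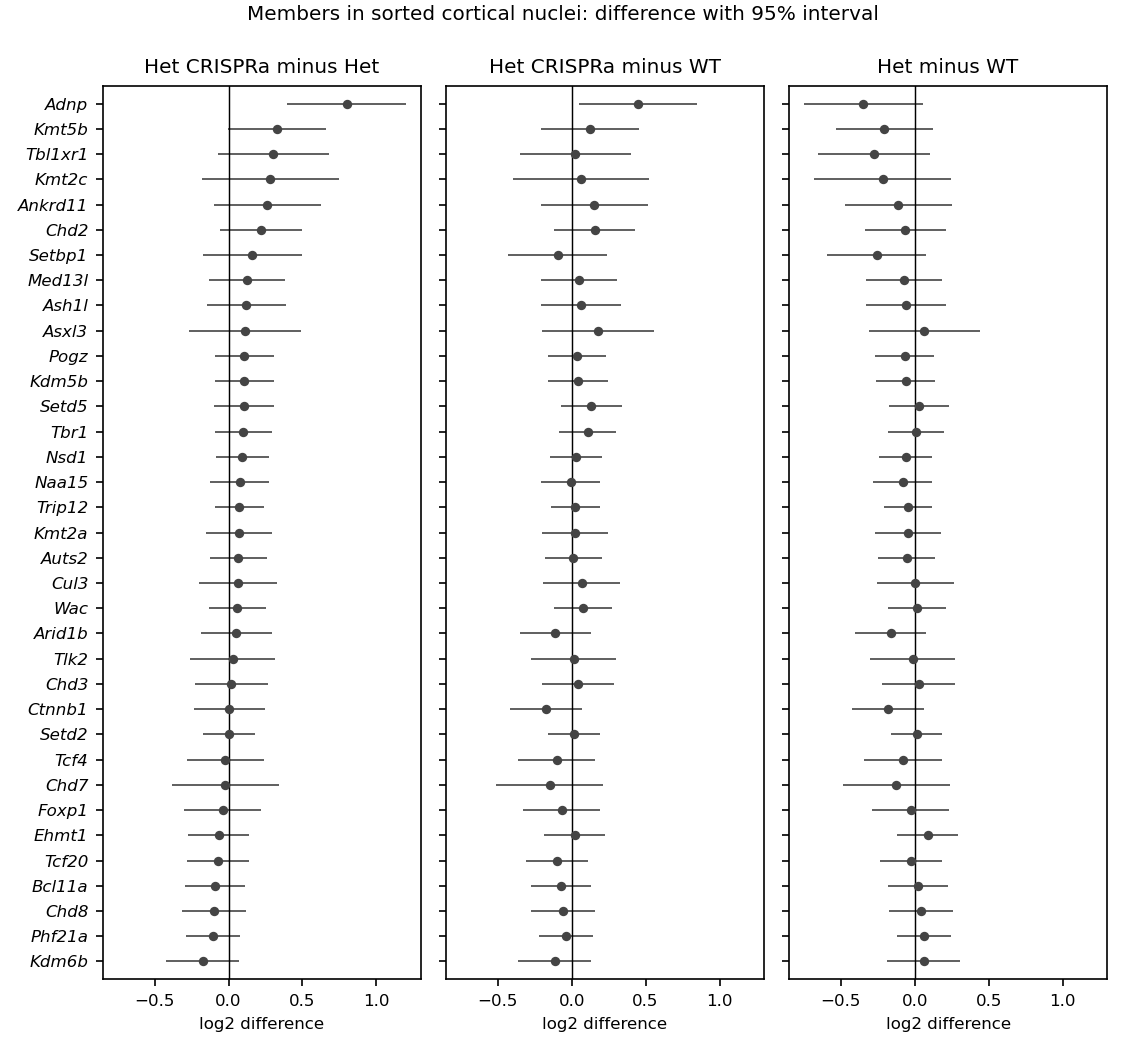
The log2 difference (x axes, point with 95% interval from limma) of each of the 35 members in nuclei, for Het CRISPRa minus Het, Het CRISPRa minus WT and Het minus WT, ordered by the first. Adnp has the highest value in the first and second panels, at 0.80 and 0.45, and the lowest in the third, at -0.35.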

How the data were processed

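PolyA RNA sequencing of 12 Neuro2a and 9 NeuN-sorted cortical nuclei samples was used, grouped by the titles, genotypes and treatments in the labels. The authors deposited a table of CPM for each experiment, and each library in it sums to 1000000. STAR 2.7.8a, DESeq2 1.44, R 4.4, featureCounts and the builds GRCm39 and mm39 appear in the submitters' processing notes, with no role or order. The strand setting and the handling of reads with several alignments are not given in the sources used here, so overlapping genes cannot be told apart. The authors also deposited DESeq2 tables with log2 fold changes, standard errors, a test score, p-values and a signal column of mean normalized levels, and their comparison of WT with Het is coded as WT over Het.

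Depth was read from the CPM value of 1 read. At that scale 70.8 to 73.1% of Neuro2a and 79.8 to 82.4% of nuclei values lay within 0.01 of whole reads, so no test on counts was run. Floors of 3 reads cover counting error only. For each table, lmFit and eBayes (trend) of limma 3.58.1 were run in R 4.3.3 on log2(CPM + 0.5), over genes that reached 0.5 CPM in 6 or more Neuro2a libraries (14398 genes) or 3 or more nuclei libraries (18967 genes), with all 9 nuclei libraries in a single fit, Benjamini-Hochberg adjustment over all genes of a comparison and a threshold of 0.05. Steps were tested on simulated data, with known changes of 1.25-fold and 2-fold in 100 genes each. Tables and plots were made in Python 3.11.15 with numpy 2.4.6, pandas 2.3.3 and matplotlib 3.10.9.

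Neuro2a libraries of the same replicate number deviated together (correlations across genes of 0.305 to 0.499 between groups), which also holds for other numbers of the same library set (0.284 to 0.505) and not for numbers within a set once its mean is removed (-0.071 to 0.023). Every same-number correlation passed the rule used here (above 0.1), but the shared deviation follows the library set and does not show the numbers to be pairs. The labels give no pairing either. A block on replicate number also takes out the library set. Nuclei numbers did not pair (-0.11 to 0.418).

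The members, the 15 partner lists, the 5 lists of cell type, interferon and mitochondrial genes and the tests were chosen with earlier results of these data known. Values by library, or as lowest, median and highest, are given for every member that passed in Neuro2a. They are also given for the 6 members with the smallest p for the difference between library sets. The 4 members with the smallest p in each nuclei comparison were treated alike. Up to 3 genes are named for a partner list with at least 3 calls. Lengths come from GENCODE M21, and promoter sequences from RefSeq (GRCm38.p6). Alternatives were pseudocounts of 0.1 and 1, other filters, median-of-ratios and quantile scaling, a replicate block, library set as a covariate or 1 set alone, fits of only the groups compared, and leaving out each library.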

Additional observations from a re-analysis of the deposited data

Results flagged for a closer look

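CRISPRa minus VP64 only, on the log2 scale, was higher in library set 8 than in set 7 for 14 members (adjusted p under 0.05 in limma). It was lower for 0, and the shares over all genes were 9.42% higher and 12.3% lower. For members that fell in both sets, such as Chd2 and Kmt2c, a higher value is a smaller fall in set 8. Values here are set 8 minus set 7. Auts2 stood at 0.61 and was the one member that rose in set 8 and fell in set 7. Chd2 stood at 0.64, Kmt2c at 0.45, Wac at 0.41, Kdm6b at 0.39 and Pogz at 0.34. Arid1b stood at 0.28, Setd5 at 0.25, Med13l at 0.23 and Ankrd11 at 0.22, and these 10 passed under all 19 alternatives. Adnp stood at 0.36, Setbp1 at 0.28, Phf21a at 0.26 and Setd2 at 0.25. Adnp and Setbp1 passed under 11 of the 19 and Phf21a and Setd2 under 13, and each was lost when CRISPRa replicate 2, among others, was left out, with adjusted p values over all alternatives up to 0.154 for Adnp, 0.0966 for Setbp1, 0.0707 for Phf21a and 0.110 for Setd2 in limma.

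A single library lay far from the other 5 of its group in 2 cases, both CRISPRa replicate 2: Setd2 with 76.6 CPM, where the nearest library had 84.2 CPM, and Setbp1 with 39.9 CPM, where the nearest had 44.3 CPM. Over the 64 groups examined, chance alone flags about 1 in 20.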

How the results depend on the processing

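For CRISPRa against VP64 only in Neuro2a, 9 members passed with the main settings, 14 with the replicate block, 14 when the library set was a covariate, 21 in set 7 by itself and 12 in set 8 by itself, and 7 to 10 when each library was left out in turn. Higher and lower calls over all genes were 10.0 and 5.02% (main), 19.9 and 11.4% (block), 25.0 and 14.5% (covariate), 29.4 and 16.4% (set 7) and 14.1 and 10.3% (set 8). With a library left out they ran from 991 higher and 509 lower (without CRISPRa replicate 1) to 1625 and 786 (without CRISPRa replicate 4) of 14398 genes. Auts2 was the single value that changed sign past the threshold, at 0.18 (adjusted p = 0.0120 in limma) in set 8 alone against -0.12 over all libraries. Leaving out each library gave 10 to 15 members for the difference between sets, 14 to 18 for set 8 against set 7 in VP64-only libraries, 20 to 23 in CRISPRa libraries, and 0 in each nuclei comparison. With all libraries, higher and lower calls over all genes were 9.42 and 12.3% for the difference between sets. They were 19.9 and 25.9% for VP64-only libraries and 21.3 and 33.4% for CRISPRa libraries. The calls over all 14398 genes moved as well when a library was left out. For the difference between sets they were 1090 higher and 1312 lower without VP64-only replicate 1, and 1430 and 1847 without VP64-only replicate 3. For VP64-only libraries they were 2473 and 3347 without VP64-only replicate 5. For CRISPRa libraries they were 2751 and 4360 without CRISPRa replicate 2. The replicate block gave 1 member, Adnp (adjusted p = 0.0157 in limma), for Het CRISPRa against Het, although the nuclei numbers did not pair. Over all 18967 genes that fit called 2 higher and 29 lower. Over single members, 4117 values stayed on the same side of the threshold under the alternatives, of which 172 changed sign short of it and 3945 kept their sign, 52 passed newly, 79 no longer passed and 1 reversed. The causes were not tested.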
